A study of Homo sapiens with 3 samples.

Results

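The genes described here are 9 genes of the angiogenic tip cell and of the apelin axis, ESM1, APLN, APLNR, UNC5B, UNC5B-AS1, CXCR4, RBP7, CA2 and PRND, out of 33538 genes counted in human blood vessel organoids. They were named by symbol but chosen by their UMI levels in these same libraries, known from earlier work on them, so their levels by library and the cells that share them are a description and carry no test. A UMI, or unique molecular identifier, stands for 1 captured transcript. Each gene was followed in endothelial cells, taken as cells with at least 1 UMI in at least 3 of PECAM1, CDH5, CLDN5, TIE1, KDR, CLEC14A and CD93, and in all other cells. All 9 symbols were found once in the files.

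Blood vessel organoids are self-organising cultures that form endothelial, mural and mesenchymal cells. These came from the human embryonic stem cell line H1, a long-established line. Every organoid, uninduced ones included, carried a PiggyBac insertion of a doxycycline-inducible cassette for NEUROD1, a neurogenic transcription factor, joined to GFP through P2A, and every organoid received BDNF and NT-3, which sustain neurons, from day 15. All 3 groups were taken at day 45 and have 1 library each: an uninduced one, one induced for 15 days and one for 45 days, the induced ones with doxycycline at 1 µg/ml. Each library pooled 5 to 6 organoids and was made with a 3′ droplet kit, so it holds no replicate, and the labels do not give which 15 days were induced or whether the line is 1 clone.

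A sprouting vessel is led by tip cells, which extend protrusions towards VEGF and carry genes such as ESM1, APLN, CXCR4 and ANGPT2, and is lengthened by stalk cells behind them. Apelin, a secreted peptide encoded by APLN, acts through APLNR, a G protein-coupled receptor; in mouse vessels the ligand is known from tip cells and the receptor from venous endothelium and the cells that follow the tip. UNC5B is a receptor for netrins that is known to guide vessel branches.

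Because the libraries are unreplicated, every interval below is an exact 95% interval that covers counting error only, and UMIs summed over cells are given per 1000000 UMIs of the same cells (CPM). NEUROD1 itself stood at 1.56 CPM without induction, 1.45 CPM in the library labelled 15 days and 44.9 CPM in the library labelled 45 days, from 77, 64 and 2398 UMIs, so the counted NEUROD1 transcript does not set the library labelled 15 days apart from the uninduced one. A transcript of the cassette may end beyond the annotated NEUROD1 gene and then goes uncounted, which was not tested. The labels also do not say whether doxycycline was still present at day 45 in that library. In other cells 8 neuron markers, among them NEFL, PRPH and STMN2, summed to 164, 2756 and 1175 CPM. By these markers the library labelled 15 days did differ from the uninduced one. Endothelial cells numbered 437 of 8133 in the uninduced library, 339 of 5050 after 15 days and 218 of 8813 after 45 days, or 5.37% (4.89 to 5.89), 6.71% (6.04 to 7.44) and 2.47% (2.16 to 2.82). Their median depth was 6996, 8368 and 6310 UMIs, against 5033, 7171 and 5503 UMIs in other cells. ROBO4, an endothelial receptor that the selection did not use, was at 129, 148 and 144 CPM in the endothelial cells and at 0.806, 0.558 and 0.674 CPM in other cells. Just outside the threshold, 140, 78 and 56 cells had exactly 2 of the 7 genes; just inside it, 29, 19 and 16 had exactly 3, and 187, 202 and 111 had all 7. Between pairs of libraries 13 to 33 barcodes were shared, and 1 of them was endothelial in both.

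On GRCh38 with GENCODE 29 coordinates, ESM1 lies at chr5:54977864-55022671 on the minus strand, APLN at chrX:129645259-129654937 on the minus strand and APLNR at chr11:57233577-57237314 on the minus strand. UNC5B spans chr10:71212570-71302864 on the plus strand. UNC5B-AS1, an antisense transcript, spans chr10:71217224-71218228 on the minus strand, wholly inside an intron of UNC5B at chr10:71213065-71279820, and none of its 3 exons overlaps a UNC5B exon. CXCR4 lies at chr2:136114349-136118165 (minus strand), RBP7 at chr1:9997206-10016020 (plus) and PRND at chr20:4721910-4728460 (plus). Whether the counting used strand is not given in the sources used here, so reads from introns of UNC5B and reads from UNC5B-AS1 may not be told apart.

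Promoter sequences from RefSeq (GRCh38.p14) are shown for the ligand APLN, for the tip gene ESM1 and for UNC5B-AS1, which had the largest fold between libraries. Each run holds the 250 bases before the RefSeq start, 5′ to 3′ on the gene's strand, and capitals mark ACGTG or GCGTG on either strand, the core letters of hypoxia response elements. The regions are chr5:54985594-54985843 for ESM1, which lies inside the longer GENCODE span, chrX:129654957-129655206 for APLN and chr10:71218229-71218478 for UNC5B-AS1, all on the minus strand.
ESM1: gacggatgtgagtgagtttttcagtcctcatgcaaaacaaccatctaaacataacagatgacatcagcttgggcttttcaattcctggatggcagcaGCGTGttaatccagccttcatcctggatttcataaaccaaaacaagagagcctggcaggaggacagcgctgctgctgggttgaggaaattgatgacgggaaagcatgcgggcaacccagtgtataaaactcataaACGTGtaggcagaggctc
APLN: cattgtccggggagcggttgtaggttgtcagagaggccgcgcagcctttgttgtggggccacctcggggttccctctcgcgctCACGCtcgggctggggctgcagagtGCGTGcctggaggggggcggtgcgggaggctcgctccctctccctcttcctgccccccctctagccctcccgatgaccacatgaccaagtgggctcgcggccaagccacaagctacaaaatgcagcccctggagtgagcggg
UNC5B-AS1: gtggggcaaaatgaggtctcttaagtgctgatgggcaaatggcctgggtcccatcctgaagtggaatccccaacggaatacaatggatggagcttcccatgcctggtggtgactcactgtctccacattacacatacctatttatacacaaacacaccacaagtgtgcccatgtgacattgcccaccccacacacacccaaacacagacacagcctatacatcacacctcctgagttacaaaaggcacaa
The ESM1 run held 1 ACGTG and 1 GCGTG, the APLN run 2 GCGTG, 1 of them read as CACGC on this strand, and the UNC5B-AS1 run none. The 6 genes with a promoter entry have 8 listed promoters, of which 6 held either motif; among 35116 promoters of the same length 43.2% did. APLNR, UNC5B and CA2 are named only.

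ESM1, which encodes the secreted proteoglycan endocan, is a marker of tip cells and was higher in both induced libraries. Its endothelial level was 230.3 CPM (215 to 247) without induction, 719.7 CPM (689.7 to 751) after 15 days and, after 45 days, 883 CPM (836 to 932). That made ESM1 3.12-fold higher at 15 days (2.88 to 3.39) and 3.83-fold higher at 45 days (3.51 to 4.19) than without induction. Both the share of cells and the level per cell differed. With every cell thinned to 2000 UMIs, which left out 29, 25 and 28 shallower endothelial cells, 18.6%, 44.9% and 51.1% of endothelial cells had an ESM1 UMI. Unthinned shares were 32.3%, 58.1% and 62.8%, and the level within the ESM1-positive cells was 611, 1228 and 1307 CPM. The 15 and 45 days libraries lay much closer to each other, at a fold of 1.23 (1.14 to 1.31), than either lay to the uninduced one.

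APLN was a sparse transcript with the same order of libraries. The 3 libraries gave 32, 80 and 57 UMIs, or 9.24 CPM (6.32 to 13.0) in the uninduced one, 26.6 CPM (21.1 to 33.1) in the 15 days one and 37.6 CPM (28.5 to 48.7) in the 45 days one. The fold was 2.88 (1.89 to 4.49) at 15 days and 4.07 (2.60 to 6.49) at 45 days against no induction, while the interval of 45 against 15 days, 0.99 to 2.01 around 1.41, reached 1. The ligand was counted in 26, 48 and 36 endothelial cells, and in 2.45%, 4.78% and 6.84% of them after thinning, so its share in any library is known only roughly.

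The apelin receptor ran the other way, and not in step with the ligand. APLNR stood at 152 CPM (139 to 166) without induction and 157 CPM (143 to 172) at 15 days, which overlap, but at 21.8 CPM (15.0 to 30.6) at 45 days. Its level at 45 days was 0.143 of that without induction (0.0975 to 0.204) and 0.139 of that at 15 days (0.0945 to 0.198). APLNR-positive endothelial cells numbered 116, 57 and 15, and after thinning they made up 19.4%, 12.7% and 1.58%. At 45 days the remaining positive cells also held less of it, 231 CPM against 572 CPM without induction and 659.9 CPM at 15 days, and the top 10 cells held 84.8% of the 33 UMIs.

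UNC5B and its antisense transcript were both higher with induction, to very different degrees. UNC5B was at 394, 677 and 803 CPM, 1.72-fold (1.60 to 1.84) and 2.04-fold (1.89 to 2.20) above no induction, and 46.1%, 65.3% and 76.3% of thinned endothelial cells had a UMI. UNC5B-AS1 had 15.3 CPM (11.5 to 20.0) uninduced, 109.5 CPM (98 to 122) after 15 days and 261 CPM (236 to 288) after 45 days. Among the 9 genes it had the largest folds, 7.16 (5.34 to 9.76) and 17.1 (12.8 to 23.2), and was the only one more than 2-fold higher at 45 than at 15 days, at 2.39 (2.06 to 2.77). Few cells carried most of it. It was counted in 29, 71 and 72 endothelial cells, the 10 highest held 64.2%, 58.7% and 51.5% of its UMIs, and 1 cell alone held 53 of 329 UMIs at 15 days and 42 of 396 at 45 days. Without the highest cell of each library the log2 ratio was 2.39 at 15 days and 3.69 at 45 days, beside 2.5 and 3.71 with it.

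CXCR4, the receptor of the chemokine CXCL12, was counted in most endothelial cells of every library. Uninduced cells had 981 CPM (949 to 1015) of CXCR4, those induced for 15 days 1298 CPM (1257 to 1339) and those induced for 45 days 1473 CPM (1413 to 1535), and 63.5%, 73.3% and 80.5% of thinned cells had a UMI. The folds against no induction were small, 1.32 (1.26 to 1.39) and 1.5 (1.42 to 1.58).

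RBP7 and CA2 were low without induction and higher in both induced libraries, and PRND differed little. RBP7, a cytosolic retinoid-binding protein whose gene is a PPARG target in mouse endothelium, had 39.0 CPM uninduced, 127 CPM after 15 days and 138 CPM after 45 days. At 45 days the fold was 3.54 (2.84 to 4.43), with 1 cell holding 57 of the 209 UMIs; without the highest cell of each library the log2 ratio was 1.47, beside 1.70 with it. CA2, a cytosolic carbonic anhydrase encoded at chr8:85463852-85481493 on the plus strand, was at 24.2 CPM (19.3 to 30.0), 114 CPM (102 to 126) and 93.1 CPM (78.3 to 109.7), with folds of 4.68 (3.68 to 6.02) and 3.84 (2.91 to 5.09). PRND, which encodes the prion-like surface protein doppel, was at 553, 813 and 718 CPM, with folds of 1.47 (1.38 to 1.56) and 1.30 (1.20 to 1.40). RBP7 between 45 and 15 days had a fold of 1.08 (0.91 to 1.29) and CA2 one of 0.82 (0.67 to 1.00), so neither order is settled by the counts.

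**Figure D1:**
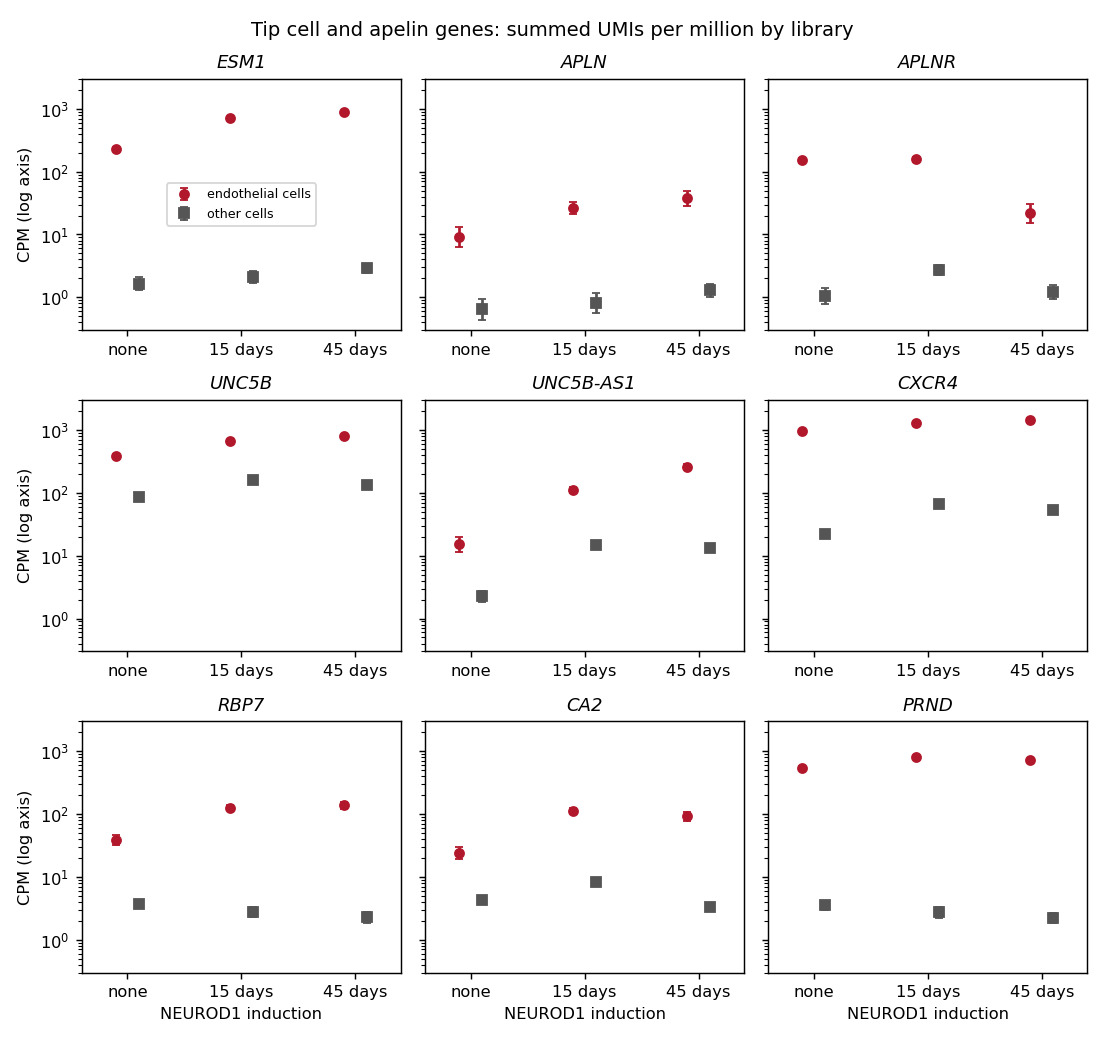
Summed UMIs per 1000000 (CPM, log axis) of each gene by library, for endothelial cells (circles) and other cells (squares); bars are exact 95% Poisson intervals of 1 library. ESM1 in endothelial cells sat at 230.3, 719.7 and 883 CPM for no induction, 15 days and 45 days, while APLNR sat at 152, 157 and 21.8 CPM.

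Set against all genes, most of the 9 stood at the high end of the difference between induced and uninduced endothelial cells. Each ratio is the log2 of the quotient of (CPM + 5) values, over genes at 20 CPM or more in either library, a floor that all 9 passed in each comparison, some only through the library where they were high. At 45 days against no induction 6 of the 9 were at least 2-fold higher, UNC5B-AS1, ESM1, CA2, RBP7, APLN and UNC5B, beside 0.995% of 7136 genes, and 1, APLNR, was at least 2-fold lower, beside 0.967%. The median of the 9 was 1.58 and that of all genes 0.06. UNC5B met the 2-fold line by little, with a log2 ratio of 1.02, and 0.94 when libraries were scaled by the median of ratios. For 15 days against no induction 5 were higher, UNC5B-AS1, CA2, ESM1, RBP7 and APLN, beside 0.913% of 7117 genes, and 0 lower, beside 0.745%, with a median of 1.15 against 0.07 over all genes. APLN passed the floor there only through the induced library, and its log2 ratio of 1.15 was 0.99, under 2-fold, over all deposited barcodes. Between 45 and 15 days UNC5B-AS1 was higher, beside 0.208% of 7221 genes, and APLNR lower, beside 0.623%, with a median of 0.18 against -0.01. Since these genes were picked with such differences known, nothing is read from these counts, and the first 2 comparisons share the uninduced library.

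**Figure D2:**
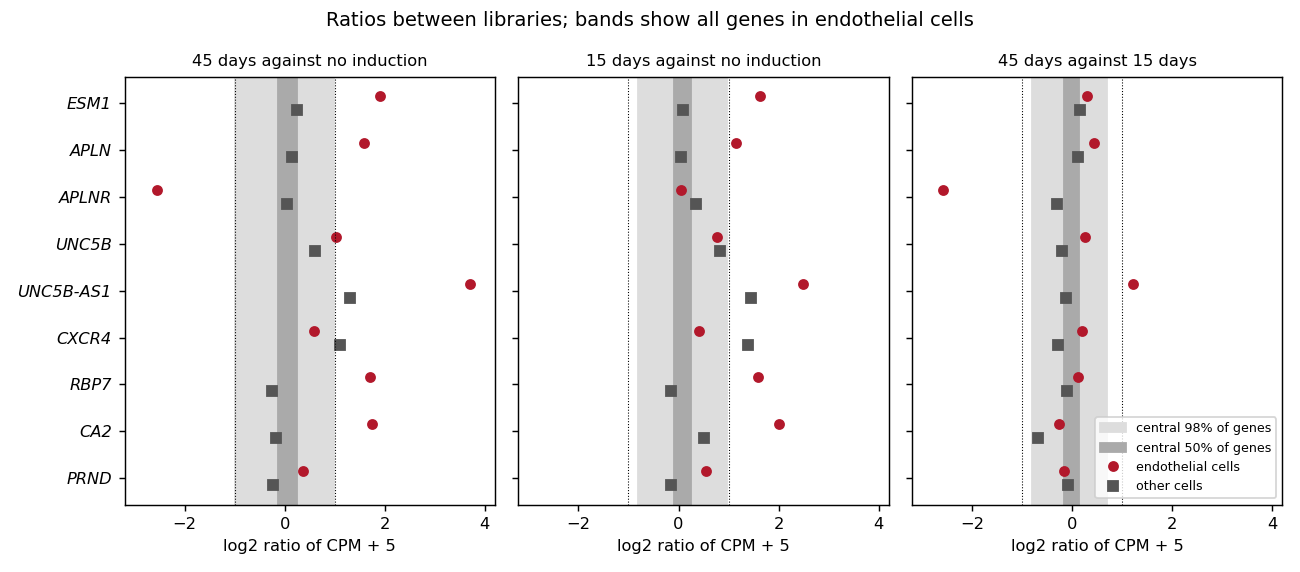
Log2 ratios of CPM + 5 between libraries for each gene, in endothelial cells (circles) and other cells (squares), with the central 50% and 98% of all genes in endothelial cells as bands and 2-fold as dotted lines. UNC5B-AS1 lies farthest right in endothelial cells, at 3.71, 2.5 and 1.22, and APLNR lies at -2.55, 0.04 and -2.59.

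Of the genes that work with the 9, most of those past the floor lay within 2-fold between libraries. Of 13 partners listed, 7 passed the floor at 45 days against no induction; 0 were at least 2-fold higher and 1 was lower, beside 0.995% and 0.967% of all genes, with a median of 0.03, beside 0.06 over all genes. That was FLRT2, a surface protein that binds UNC5B, at 3.30 CPM at 45 days, against 33.8 CPM without induction and 27.6 CPM at 15 days. At 15 days against no induction 1 of 7 was higher, CD36, a fatty acid transporter, at 107 CPM against 30.0 CPM, with a median of 0.15, and 0 were lower, beside 0.913% and 0.745% of all genes. CD36 stood at 47.5 CPM at 45 days. At 45 against 15 days 0 were higher and both FLRT2 and CD36 were lower, beside 0.208% and 0.623% of all genes. ACKR3, the second receptor of CXCL12, was at 344, 431 and 514 CPM, and CXCL12 itself was at 3.46, 7.32 and 7.92 CPM in endothelial cells but at 53.4, 45.6 and 39.9 CPM in other cells. APELA, the other peptide ligand of APLNR, gave 3, 0 and 0 UMIs in endothelial cells and stood at 5.34, 6.48 and 1.52 CPM in other cells. The netrin ligands gave few UMIs: NTN1 gave 0, 1 and 0 UMIs and NTN4 2, 3 and 2 in endothelial cells. FLRT3 was at 9.52, 2.66 and 4.62 CPM, PRNP, the prion protein gene related to PRND, at 75.3, 68.6 and 65.3 CPM, and PPARG at 19.9, 22.6 and 20.5 CPM. The fatty acid binding protein genes FABP4 and FABP5 were at 4.33, 12.3 and 3.30 CPM and at 432, 234 and 273 CPM.

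Of 30 further tip genes, 28 passed the floor. At 45 days against no induction 4 were at least 2-fold higher, KCNE3 (25.1 against 3.46 CPM), PGF (285 against 111 CPM), NID2 (117 against 52.2 CPM) and TP53I11 (433 against 209 CPM), 0 were lower, and the median log2 ratio was 0.44; over all genes 0.995% were higher and 0.967% lower, with a median of 0.06. For 15 days against no induction KCNE3, NID2 and IGFBP3 were higher, 0 were lower and the median was 0.32, beside 0.913% and 0.745% of all genes and a median of 0.07. Between 45 and 15 days 0 passed 2-fold either way, beside 0.208% and 0.623% of all genes, and both medians were -0.01. The stalk, venous and arterial genes below stand beside the same shares and medians of all genes. Of 15 stalk and quiescence genes 12 passed the floor, with a median of -0.08 at 45 days against no induction, 0.08 at 15 days and -0.29 for 45 against 15 days. Among them CXCL8, a chemokine, was higher at 45 days against no induction, at 35.6 against 3.75 CPM. VWF, which marks mature endothelium, was lower at 19.1 against 76.8 CPM, TEK, the angiopoietin receptor, at 62.7 against 219 CPM and KLF2, a flow-responsive factor, at 80.5 against 277 CPM. For 15 days against no induction CXCL8 was higher and VWF lower, and for 45 against 15 days KLF2 was lower. NR2F2, a factor of venous identity, was the only one of 6 venous and lymphatic genes past 2-fold at 45 days, at 66.0 CPM against 221 CPM without induction and 168 CPM at 15 days, and it was also past 2-fold between the 2 induced libraries. Of 5 arterial genes past the floor NOTCH4 alone reached 2-fold at 45 days, at 463 against 225 CPM.

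Transcripts of other cell types in the endothelial cells also differed between libraries. The 7 macrophage markers summed to 17.6, 102 and 236 CPM, led by C1QA and C1QB, while PTPRC was at 0 UMIs without induction and at 45 days. Neuron markers summed to 13.0, 135 and 98.3 CPM, with PRPH, ELAVL4, INA and SLC17A6 at 0 without induction; mural markers summed to 231, 165 and 174 CPM, epithelial markers to 289, 349 and 322 CPM, hepatocyte markers to 71.6, 192 and 4.62 CPM, and mesenchymal markers to 1301, 240.0 and 284 CPM. Outside endothelium the macrophage markers summed to 147, 290 and 158 CPM, so at 45 days the endothelial cells had the higher level. Endothelial cells with 3 or more macrophage, neuron, epithelial, hepatocyte or mural markers were then left out. Only 0, 3 and 1 cells had 3 or more macrophage markers, so this step removed few cells on that ground. Cells with mesenchymal markers, of which 60, 10 and 15 had 3 or more, were not left out on that ground. Without the other marked cells the log2 ratio at 45 days against no induction was 2.02 for ESM1, 1.73 for APLN, -2.47 for APLNR and 3.64 for UNC5B-AS1, beside 1.92, 1.58, -2.55 and 3.71 with them; the part of single stray transcripts in these ratios was not tested.

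In other cells the 9 genes fell into 3 kinds. ESM1, PRND and, in the uninduced and 15 days libraries, APLNR were mostly endothelial. ESM1 stood at 1.66, 2.11 and 2.91 CPM in other cells, which was 0.72%, 0.29% and 0.33% of its endothelial level, and PRND at 0.64%, 0.33% and 0.31%. The same share for ROBO4 was 0.62%, 0.38% and 0.47%, which is of the same size. By marker list ESM1 was not even: at 45 days cells with neuron markers had 6.43 CPM of it (4.08 to 9.65), with 6 of those 23 UMIs in 1 cell. ESM1 was counted in 0.28%, 0.45% and 0.60% of thinned other cells. Other cells had 0.70%, 1.75% and 5.66% of the endothelial level of APLNR; at 45 days 34.0% of its UMIs lay in endothelial cells, against 91.5% without induction. Cells with at least 3 neuron markers held 43.4% of the 113 APLNR UMIs outside endothelium at 15 days, at 9.77 CPM (7.23 to 12.9), and 34.4% of the 64 at 45 days.

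UNC5B, UNC5B-AS1 and CXCR4 had further sources. UNC5B in other cells was at 87.4, 158 and 136 CPM, and only 25.4%, 23.8% and 14.7% of its UMIs lay in endothelial cells. Cells with mural markers had 133, 236 and 183 CPM of UNC5B, and cells with macrophage markers 29.4, 19.6 and 26.9 CPM. Cells with no marker list had 97.5, 190 and 141 CPM of UNC5B. They held 69.6%, 45.5% and 70.4% of its UMIs outside endothelium, and cells with mural markers 21.3%, 26.5% and 20.1%. UNC5B-AS1 followed another pattern: in the induced libraries it was at 45.8 and 65.4 CPM in cells with neuron markers and at 36.1 and 35.8 CPM in cells with epithelial markers, but at 5.12 and 6.18 CPM in cells with no marker list. Without induction cells with epithelial markers had 3.56 CPM of it, and the 7 cells with neuron markers had none. CXCR4 in other cells was at 22.2, 66.4 and 53.8 CPM. Cells with macrophage markers had 109, 96.4 and 120.2 CPM and those with mural markers 44.1, 80.3 and 87.7 CPM. Cells with no marker list had 21.0, 63.5 and 47.9 CPM of CXCR4 and held 59.1%, 36.2% and 60.3% of its UMIs outside endothelium.

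RBP7, CA2 and APLN were low on average in other cells, but those cells are many: endothelial cells held only 44.4%, 76.7% and 63.9% of all RBP7 UMIs. RBP7 was at 3.68, 2.81 and 2.27 CPM in other cells, but at 56.5 CPM (36.6 to 83.4), 63.7 CPM (45.3 to 87.1) and 45.6 CPM (28.6 to 69.0) in the 84, 88 and 89 cells with macrophage markers. Without induction that interval overlaps the endothelial one, 39.0 CPM (32.7 to 46.1). After thinning, 6.58%, 14.7% and 9.46% of those cells had an RBP7 UMI, against 4.66%, 14.3% and 13.7% of endothelial cells. CA2 in cells with macrophage markers was at 18.1, 22.9 and 29 CPM. C1QA and C1QB, macrophage markers, were also higher in the endothelial cells of the induced libraries. Their part in the folds of RBP7 and CA2 was not tested. With the marked endothelial cells left out as above, the log2 ratio at 15 days against no induction was 1.39 for RBP7 and 2.24 for CA2. With them the ratios were 1.59 and 2.02. Of the cells left out, 0, 3 and 1 by library had 3 or more macrophage markers. At 15 days the 545 cells with markers of more than 1 list held 163 of the 344 CA2 UMIs outside endothelium, at 20.4 CPM (17.3 to 23.7). Endothelial cells held 29.7%, 49.8% and 45.2% of all CA2 UMIs. APLN in other cells was at 0.65, 0.82 and 1.29 CPM, and endothelial cells held 51.6%, 70.2% and 46.0% of its UMIs.

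The ratio between libraries in other cells was 2-fold or more for 1 of the 2 genes past the floor, CXCR4, with a log2 ratio of 1.11 at 45 days against no induction, beside 1.97% of 6333 genes, and of 1.39 at 15 days, beside 5.07% of 6647 genes; 0 were lower, beside 1.56% and 1.49%. At 45 against 15 days 0 of the 2 passed, beside 0.256% higher and 1.72% lower. UNC5B, the other one, had 0.61, 0.82 and -0.22. Scaling by the median of ratios shifts all genes of other cells by 0.20 and 0.27 in the first 2 comparisons, which puts CXCR4 at 0.93 and 1.15 and so takes it under 2-fold at 45 days. UNC5B-AS1, under the floor, was 5.78-fold higher at 45 days (4.69 to 7.17) and 6.58-fold higher at 15 days (5.33 to 8.17).

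Read by library, 7 of the 9 genes were at least 2-fold higher in endothelial than in other cells in all 3 libraries, beside 15.1% of 6935 genes; APLN and UNC5B-AS1 lay under 20 CPM without induction. The selection of endothelial cells fixes this direction for endothelial genes, so nothing is read from the count.

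**Figure D3:**
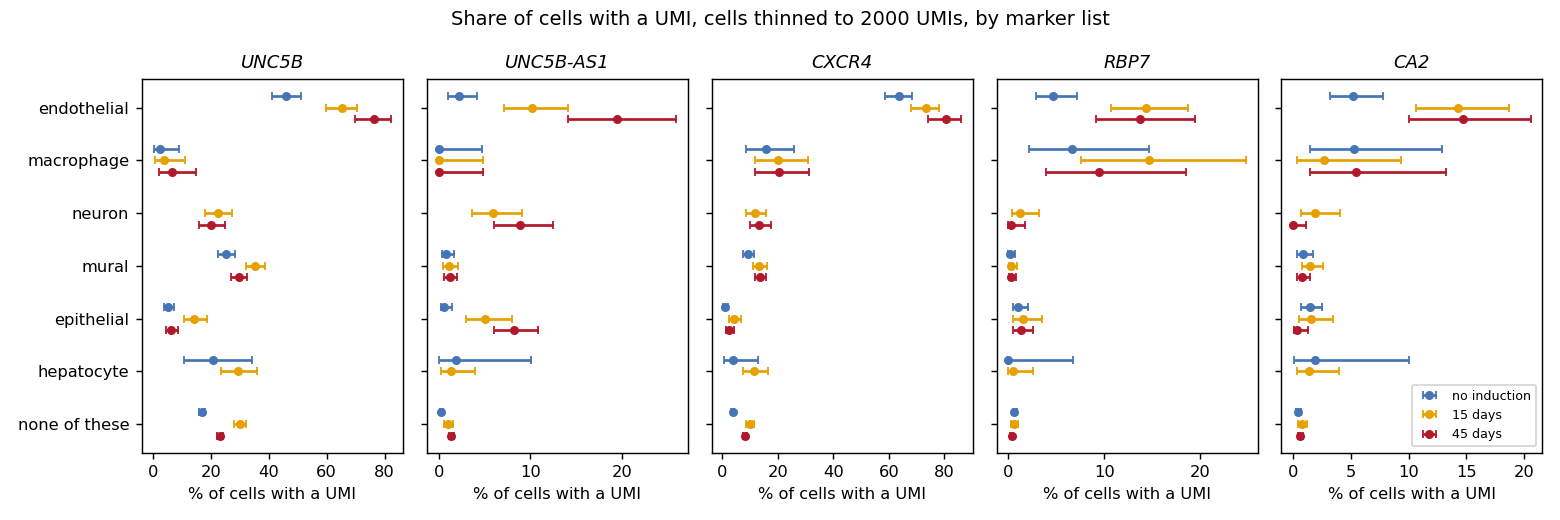
Share of cells with a UMI (%), cells thinned to 2000 UMIs, for UNC5B, UNC5B-AS1, CXCR4, RBP7 and CA2, in endothelial cells and in other cells with at least 3 markers of 1 list; bars are 95% Clopper-Pearson intervals, and classes under 50 cells are not drawn. CXCR4 was counted in 63.5%, 73.3% and 80.5% of endothelial cells and in 15.8%, 20.0% and 20.3% of cells with macrophage markers, and RBP7 in 4.66%, 14.3% and 13.7% beside 6.58%, 14.7% and 9.46%.

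Within endothelial cells ESM1 and APLNR hardly met. After thinning, 0 of 76 ESM1-positive cells without induction, 0 of 141 at 15 days and 0 of 97 at 45 days had an APLNR UMI, which allows shares of up to 3.95%, 2.13% and 3.09%. Among cells with no ESM1 UMI the APLNR share was 23.8%, 23.1% and 3.23%, the last from 3 of 93 cells, so at 45 days the counts cannot show a difference. At full depth 10 of 141, 8 of 197 and 5 of 137 ESM1-positive cells had APLNR, or 7.09%, 4.06% and 3.65%, against 35.8%, 34.5% and 12.3% of the ESM1-negative ones. The cells with both genes were deeper than most, with median depths of 10125.5, 12166.5 and 15851 UMIs.

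**Figure D4:**
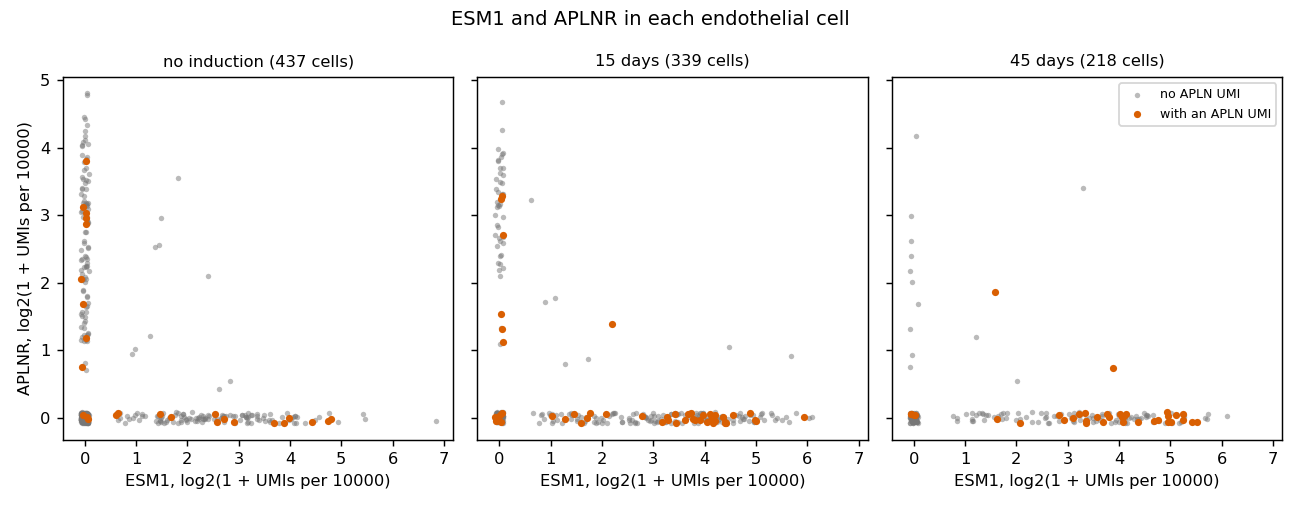
ESM1 (x) and APLNR (y) in each endothelial cell of each library, as log2(1 + UMIs per 10000), with small jitter at each value and cells with an APLN UMI in orange. Most cells lie along 1 of the 2 axes; 10, 8 and 5 cells have both genes, and of the APLN-positive cells 14 of 26, 36 of 48 and 32 of 36 have ESM1.

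At full depth APLN-positive cells had ESM1 more often than APLN-negative ones in all 3 libraries. The size of that excess differed between the full and the thinned counts. At full depth 53.8% of the 26 APLN-positive cells without induction, 75% of 48 at 15 days and 88.9% of 36 at 45 days had ESM1, against 30.9%, 55.3% and 57.7% of APLN-negative cells. Thinning left 10, 15 and 13 APLN-positive cells, of which 20.0% (2.52 to 55.6), 60% (32.3 to 83.7) and 61.5% (31.6 to 86.1) had ESM1, against 18.6%, 44.1% and 50.3%. The intervals after thinning all include the shares of APLN-negative cells, so the counts at that depth do not settle the association. Thinned to 4000 UMIs, 72.7% of 11, 80.8% of 26 and 78.9% of 19 APLN-positive cells had ESM1, against 25.1%, 48.8% and 54.4%. The excess without induction was thus 47.6 points at 4000 UMIs and 1.41 points at 2000 UMIs. Thinning to each depth was a separate random draw, so with so few cells depth and draw cannot be told apart. APLN and APLNR were in the same cell in 9, 7 and 2 cells at full depth, or 34.6%, 14.6% and 5.56% of APLN-positive cells, against 26.0%, 17.2% and 7.14% of APLN-negative ones, so the ligand neither marked nor spared receptor-positive cells by a margin that these counts can show.

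Of the 36 pairs of the 9 genes, after thinning 16 had 1 gene more often in cells with the other than in cells without it in all 3 libraries, 9 less often in all 3, and 11 were mixed. At full depth the counts were 25, 6 and 5, and deeper cells show more of any gene. At both depths the pairs with the lower share in all 3 libraries included APLNR with ESM1, UNC5B, UNC5B-AS1, CXCR4, RBP7 and PRND. APLN with UNC5B and APLN with PRND changed sides. They were more often together in all 3 libraries at full depth and less often in all 3 after thinning. Thinning left 10, 15 and 13 APLN-positive cells, so the direction of those pairs is not settled. Only 3 thinned cells had APLNR at 45 days, too few to show a difference for any pair, so for APLNR the thinned counts speak for the other 2 libraries alone. CXCR4 and PRND were the closest pair at 15 days: 77.0% of 230 thinned CXCR4-positive cells had PRND, against 25% of 84 negative ones, and the shares were 65.3% against 11.4% without induction and 67.3% against 21.6% at 45 days. APLNR with CXCR4 was the reverse, at 10.0% of 40 APLNR-positive cells against 82.5% of 274 negative ones at 15 days and 25.3% against 72.6% without induction. No cell held all 9 genes, and 8 of them were found in 0, 1 and 3 cells at full depth.

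**Figure D5:**
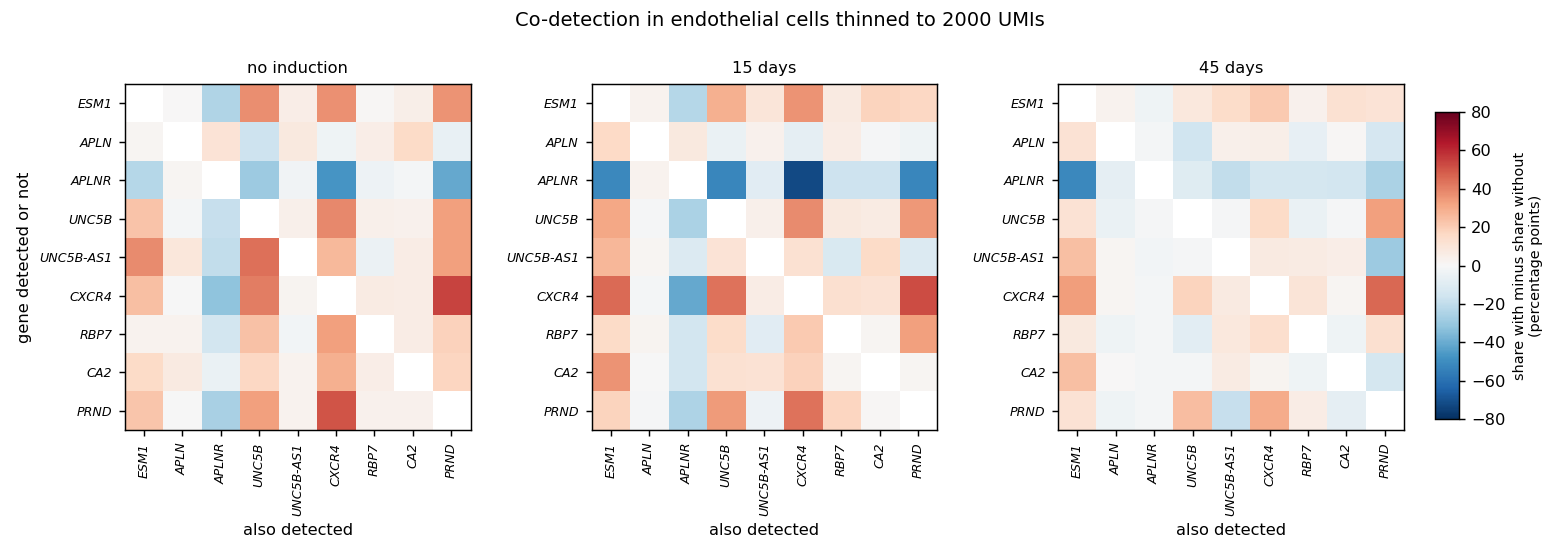
Difference in the share of thinned endothelial cells with the column gene between cells with and without the row gene, in percentage points, by library. The APLNR row is blue for ESM1, UNC5B, CXCR4 and PRND in each library, and CXCR4 with PRND is red; the APLNR row at 45 days rests on 3 cells.

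Endothelial cells at full depth were split into those with ESM1 alone, with APLNR alone and with neither, beside the few with both. Cells with ESM1 alone were 131 of 437, 189 of 339 and 132 of 218, and cells with APLNR alone 106, 49 and 10. Cells with neither numbered 190, 93 and 71. In cells with ESM1 alone CXCR4 was at 1628, 1842 and 1807 CPM, against 194, 116 and 587 CPM in cells with APLNR alone, the last from 43 UMIs in 10 cells. Cells with neither had 888, 1038 and 890 CPM of CXCR4, so it was not confined to cells with ESM1. NR2F2 ran opposite, at 27.9, 10.4 and 34.6 CPM in cells with ESM1 alone and 667, 769 and 300.3 CPM in cells with APLNR alone. UNC5B-AS1 in cells with ESM1 alone was at 33.8 CPM (24.1 to 46.0), 175 CPM (155 to 196) and 295 CPM (262 to 332). In cells with neither it was at 8.82, 47.1 and 168 CPM, so it was higher with induction there too. ESM1 itself was higher per positive cell in the induced libraries, so the cells with ESM1 alone are not matched between libraries. CXCR4, PRND and ANGPT2, a tip gene that encodes angiopoietin 2, differed less there: PRND was at 897, 1019 and 757 CPM and ANGPT2 at 174, 206 and 229 CPM. RBP7 in these cells was at 60, 175 and 180.2 CPM, and CA2 at 38.0, 161 and 111 CPM. APLN was at 16.1, 34.9 and 49.2 CPM in cells with ESM1 alone. In cells with APLNR alone it was at 12.5, 27.3 and 0 CPM, the last from 10 cells.

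Across endothelial cells within each library, Pearson correlations of log2(1 + UMIs per 10000) were averaged over the 3 libraries for 9338 genes counted in at least 5% of cells; they describe 437, 339 and 218 cells that share a library and differ in depth. ESM1 was most like FLT1 (mean r 0.48), GJA1 (0.47), CXCR4 (0.45), IGFBP3 (0.44) and SLC45A4 (0.39), and most unlike NR2F2 (-0.33). Of these, FLT1 was listed here with the stalk and quiescence genes and IGFBP3 with the further tip genes. APLNR was most like IGFBP7 (0.56), NR2F2 (0.54), NTS (0.51), NKX2-3 (0.46) and COTL1 (0.44), and most unlike CXCR4 (-0.45). For APLN the leading values were weak in these sparse counts, RGCC at 0.23, HPGD at 0.20, ENG at 0.18, ESM1 at 0.18 and ENO2 at 0.18, and nothing is read from them.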

How the data were processed

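Single cells of 3 libraries were measured, 1 per group. The deposited values are raw UMI counts per gene and barcode; per the submitters' processing notes the authors used Cell Ranger 3.0.0 and GRCh38, and the file headers name software 3.0.1. Neither the annotation nor the use of strand in counting is given in the sources used here; 33456 of 33538 gene identifiers were found in GENCODE 29, which gave coordinates. The libraries held 10232, 5962 and 10765 barcodes and 59879923, 49488425 and 64171327 UMIs for no induction, 15 and 45 days.

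A barcode was kept with 1000 UMIs or more, 500 genes or more and no more than 20% of UMIs from mitochondrial genes. Doublets, scored by simulated doublets among 40 neighbours in 30 components of 2000 variable genes, were removed at 0.8% per 1000 barcodes (725, 253 and 831 cells). On data with 150 planted doublets, 74.7% of them and 4.67% of other cells were removed, so doublets remain. The removed barcodes included 99, 37 and 29 that met the endothelial rule. A droplet can also hold RNA released from broken cells.

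Levels (CPM) are a class's summed UMIs of a gene over its total UMIs. With 1 library per group there was no test: sums have exact Poisson, shares exact Clopper-Pearson and folds exact conditional binomial 95% intervals, which cover counting error only. Calls were at least 2-fold, on log2 of CPM + 5, for genes at 20 CPM or more. Folds printed beside CPM are plain ratios. Shares of cells were compared after thinning to 2000 UMIs, and a share of 0 has a limit of 3 cells. Thinning to each depth was a separate random draw that was not repeated. Other cells were classed by at least 3 markers of 1 list; the classes are ranges and not types. Named genes are the 9, all partners, those of other lists at least 2-fold apart, and for ESM1, APLN and APLNR the 5 most alike; the most unlike gene was added after its values were seen. Of the 3 highest and 3 lowest genes per list, only those past 2-fold are printed. The members and lists were chosen with earlier results of these data known. The ratio step was tested on simulated data. Promoters are from RefSeq. Alternatives were other filters, selections, floors, scalings and depths. Python 3.11.15, numpy 2.4.6, scipy 1.17.1, scikit-learn 1.9.0, pandas 2.3.3 and matplotlib 3.10.9 were used.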

Additional observations from a re-analysis of the deposited data

Results flagged for a closer look

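For 6 genes the fold between libraries ran in opposite directions in endothelial and in other cells with both counting intervals clear of 1, each from 1 library per group, so that none of these differences was tested. RBP7 at 45 days against no induction had a fold of 3.54 in endothelial and 0.62 in other cells, a ratio of 5.73 between them, and at 15 days 3.26 and 0.76, a ratio of 4.27. CA2 at 45 days against no induction had 3.84 and 0.76, a ratio of 5.05. PRND had 1.30 and 0.63 at 45 days, a ratio of 2.05, and 1.47 and 0.77 at 15 days, a ratio of 1.91. Between 45 and 15 days UNC5B-AS1 had 2.39 and 0.88, a ratio of 2.72, CXCR4 1.13 and 0.81, a ratio of 1.40, and UNC5B 1.19 and 0.86, a ratio of 1.38. The interval of UNC5B-AS1 in other cells, 0.79 to 0.98, came close to 1. Scaled by the median of ratios its fold there was 0.92, nearer 1 but still under it, and no interval was computed at that scaling. RBP7, CA2 and PRND stood under 9 CPM in other cells in every library, so their folds there rest on few UMIs per cell. PRND there was at 0.64%, 0.33% and 0.31% of its endothelial level, and ROBO4 at 0.62%, 0.38% and 0.47%. ROBO4 levels ran the same way, at 129, 148 and 144 CPM in endothelial and 0.806, 0.558 and 0.674 CPM in other cells. The part of stray transcripts, or of endothelial cells just outside the threshold, in the PRND folds of other cells was not tested.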

How the results depend on the processing

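No paired analysis was possible because each group has 1 library and no replicate number is shared. The endothelial share, 5.37%, 6.71% and 2.47%, became 7.09%, 8.26% and 3.11% with 2 of the 7 genes required, 4.78%, 5.21% and 2.16% without cells that had 3 markers of another list, 6.68% without induction and 7.48% at 15 days over all deposited barcodes, 6.05% without induction with doublets kept, and 4.71% without induction and 2.14% at 45 days when cells were selected after thinning, an alternative chosen after seeing the data. The excess of ESM1 among APLN-positive cells without induction, 1.41 points at 2000 UMIs, was 47.6 points at 4000 UMIs, and that of APLNR became -8.97 points at 15 days and -5.15 points at 45 days; few APLN-positive cells carry these values. Genes at least 2-fold higher in endothelial cells in all libraries were 4 at a floor of 50 CPM, beside 7, because fewer pass. Of 324 log2 ratios of the 9 genes under 12 alternatives, 301 stayed within their counting interval and 23 moved. Among them 0 changed the direction of a 2-fold call. Against no induction, the ratios of UNC5B at 45 days and of APLN at 15 days did fall under 2-fold in some alternatives. The alternatives that changed only the floor leave every ratio as it was, so their ratios are among the 301 by construction. Depth limits the sparse transcripts, and no alternative can stand in for a second library.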
